A study of Mus musculus with 2 samples.

Results

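Egr1, Egr2, Egr3, Fos, Fosb, Fosl2, Jun, Junb and Jund, 9 genes of the Egr zinc finger and AP-1 families, were followed over the cell classes and T cell states of a mouse melanoma and set beside Nr4a1, Nr4a2 and Nr4a3. They were chosen by name, not by their values, and are 9 of the 27635 genes of the mRNA count table. Barcodes with at least 500 genes and at most 25% mitochondrial counts were kept, 11318 of 12016. The cells came from subcutaneous B16F10 tumours, grown from a transplantable mouse melanoma line, 14 days after transplant. They were selected for CD3 on magnetic columns after a Percoll step, and all entered 1 BD Rhapsody capture amplified by TAS-Seq. Wild-type (WT) and Nr4a knockout (Nr4a KO) cells were stained with hashtag antibodies and pooled; the series title speaks of deletion of Nr4a1 and Nr4a2. Which allele, which Cre driver, which cells lack the genes, the strain and age of the mice, and which hashtag marks which genotype: none of these is given in the sources used here. Hashtags A0301 to A0306 are therefore samples of unknown group. No comparison of genotypes was made and no p-value was computed.

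Most of these genes encode transcription factors that cells make within minutes of a stimulus, from promoters that are poised before it and need no new protein. Jund, a broadly expressed Jun gene, is an exception. Fos proteins bind DNA as pairs with Jun proteins, the AP-1 complex, while Egr proteins bind GC-rich sites alone. In T cells signalling from the antigen receptor induces both families together with the Nr4a orphan nuclear receptors. Egr2 and Egr3 are known for restraining T cell activation, and AP-1 partners of NFAT for driving cytokine genes. Tissue digestion itself is known to induce Fos, Jun and Egr1.

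Promoters are shown because several members moved together, and the stretches are those that hold a match to a motif named below. Of the 9 members 7 were found in a table of promoters from RefSeq (GRCm38.p6), 250 bases before to 50 after the start. Egr1 and Egr3 are named only. Both strands were searched and matches are in capitals.
Fos, chr12:85473640-85473939, + strand: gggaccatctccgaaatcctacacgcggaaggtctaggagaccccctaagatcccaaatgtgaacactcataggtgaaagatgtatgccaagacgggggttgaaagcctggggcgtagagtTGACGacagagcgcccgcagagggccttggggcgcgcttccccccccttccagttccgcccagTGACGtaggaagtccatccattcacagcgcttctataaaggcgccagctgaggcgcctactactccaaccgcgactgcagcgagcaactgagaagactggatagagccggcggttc
Fosb, chr7:19309996-19310295, - strand: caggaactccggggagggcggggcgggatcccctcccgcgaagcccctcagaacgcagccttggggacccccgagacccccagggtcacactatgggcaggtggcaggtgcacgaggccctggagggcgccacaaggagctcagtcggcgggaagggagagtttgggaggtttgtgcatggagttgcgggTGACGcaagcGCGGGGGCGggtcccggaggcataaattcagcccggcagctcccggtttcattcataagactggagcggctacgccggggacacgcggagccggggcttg
Fosl2, chr5:32136222-32136521, + strand: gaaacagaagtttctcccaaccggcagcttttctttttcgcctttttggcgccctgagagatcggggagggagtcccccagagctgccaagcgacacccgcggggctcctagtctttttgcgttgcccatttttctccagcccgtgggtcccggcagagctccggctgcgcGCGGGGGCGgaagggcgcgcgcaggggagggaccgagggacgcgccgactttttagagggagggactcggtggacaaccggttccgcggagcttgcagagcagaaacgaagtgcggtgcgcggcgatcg
Junb, chr8:84978699-84978998, - strand: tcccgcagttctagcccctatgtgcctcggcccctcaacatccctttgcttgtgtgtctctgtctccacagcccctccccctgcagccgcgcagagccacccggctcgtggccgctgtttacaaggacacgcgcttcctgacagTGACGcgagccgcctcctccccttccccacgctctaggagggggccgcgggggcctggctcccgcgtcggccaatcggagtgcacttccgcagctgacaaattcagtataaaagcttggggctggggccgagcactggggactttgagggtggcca
Egr2, chr10:67537619-67537918, + strand: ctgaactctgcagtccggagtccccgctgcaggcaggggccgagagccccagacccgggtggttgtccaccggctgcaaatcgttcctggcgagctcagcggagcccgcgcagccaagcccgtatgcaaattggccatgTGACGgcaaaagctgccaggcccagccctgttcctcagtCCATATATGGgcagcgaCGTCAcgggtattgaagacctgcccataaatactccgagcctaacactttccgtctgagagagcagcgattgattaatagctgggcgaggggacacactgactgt
The CRE half-site TGACG, a core of the sites bound by CREB and ATF proteins, was found in 4 of 7 members (Egr2, Fos, Fosb and Junb), and in 20.8% of all 32851 promoters of that length. Fos held it 129 and 66 bases before the start, Fosb at 60, Junb at 106 and Egr2 at 111 and 55. The CArG box, the site of serum response factor, was found in Egr2 at 72 bases before the start and in 1.63% of all promoters. The Egr site GCGNGGGCG was found in Fosb at 50 bases before the start and in Fosl2 at 79, against 5.55% of all promoters, and it overlapped no other match. The full CRE TGACGTCA (1.79% of all promoters), the AP-1 site TGANTCA (7.81%) and the NBRE AAAGGTCA (1.51%), the site bound by a single Nr4a protein, were found in 0 of 7. The stretch searched for Jund, chr8:70697489-70697788, ended before the start of the gene at 70698949 in the gene annotation used below. For Jund the absence of matches thus does not cover that start. Matches are letters in this window and not sites shown to be bound. Egr2 has 5 starts in the table, and the stretch above was chosen because it held the most matches. The other members found have 1 start each. The CArG box and half-sites of Egr2 thus come from a selected stretch, so the shares over all promoters are no fair measure for them.

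Kept barcodes held 4142 to 892142 counts (median 26436). The deposited values behave as reads rather than molecules (median non-zero value 7), so presence of a gene in a cell was taken to mean at least 5 counts, and levels were given as CPM, counts scaled to the same total of 1000000, over the summed cells. Intervals on shares are exact binomial 95% intervals and cover counting error only. Levels were compared across cells for each gene and not between genes. Clusters gave 7879 T cell-like, 1513 macrophage or monocyte-like, 1013 melanoma-like, 278 dendritic cell-like, 139 neutrophil-like and 51 non-classical monocyte-like cells, with median depths of 20813, 73569, 193738, 51998.5, 9287 and 31883 counts. Of 9 T cell markers, all were found in at least 20% of T cell-like cells, but also in at least 20% of macrophage-like barcodes, where they summed to 2944 CPM against 7598. Trac, a T cell receptor chain, was present in 80.8% of T cell-like, 59.8% of macrophage-like and 10.2% of melanoma-like barcodes. The labels call the cells CD3-enriched T cells, so the other classes entered through the selection or with it. A hashtag could be called for 6157 barcodes (54.4%). Jun overlaps the antisense gene Junos over 689 bases, Jund overlaps Gm11175 over 919 and Junb overlaps Prdx2 on the other strand over 351 (GRCm38, GENCODE vM21). The counting strand is not given, so reads of these pairs cannot be told apart.

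Fos, Jun, Fosb, Egr1 and Egr2 stood lower in T cell-like than in macrophage-like cells. The question here is in which cells of the tumour each member is transcribed. Fos, which pairs with Jun proteins and cannot pair with itself, was at 144 CPM in T cell-like and 1421 CPM in macrophage-like cells. By hashtag (A0301 to A0306) Fos was at 140, 158, 195, 100, 142 and 139 CPM in T cell-like cells. In macrophage-like cells Fos was at 936, 1537, 1209, 2163, 1662 and 1565 CPM. All 6 macrophage values lay above all 6 T cell values. The log2 ratio of T cell-like to macrophage-like Fos within a hashtag had a median of -3.38 (-4.43 to -2.63).

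Jun, the AP-1 partner induced with Fos, was at 85.1, 134, 91.3, 54.6, 81.4 and 73.4 CPM in T cell-like cells of the same hashtags and at 288, 418, 314.2, 458, 438 and 498 CPM in macrophage-like cells. These ranges did not overlap either, and the median log2 ratio of Jun was -2.10 (-3.06 to -1.63). Egr1, an activator induced by growth factor and receptor signals, was at 184, 356, 285, 255, 225 and 208 CPM against 331, 621, 391, 1197, 628 and 735 CPM. The Egr1 ranges overlapped between hashtags, although T cell-like cells were lower within each (median log2 -1.16, -2.23 to -0.45). Fosb, a close relative of Fos, was at 156 to 291 CPM in T cell-like and 298 to 655 CPM in macrophage-like cells (median log2 -1.26, -1.77 to -0.40). Egr2 was at 2.89 to 23.9 against 19.6 to 69.4 CPM (median log2 -2.44, -4.45 to -0.06), and A0303 gave almost the same Egr2 level in both classes.

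A call needed a median log2 ratio of 1 or more in size and 1 common sign over the hashtags that had 30 or more cells in each arm. By that rule 5 of 9 members were called lower in T cell-like cells and 0 higher, and 11.3% of the 10015 genes examined were called lower. The median log2 ratio of all genes was 0.22. The members without a call were Fosl2 (0.68, 0.46 to 1.00), Jund (0.58, 0.20 to 1.03), Junb (0.10) and Egr3 (-0.19). Fosl2 and Jund thus lay above 0 in all 6 hashtags, and Junb and Egr3 had both signs. Junb was at 1096 to 1179 CPM in T cell-like and 926 to 1352 CPM in macrophage-like cells. Without any 1 of A0304, A0305 and A0306 the medians of Egr1 (-0.85) and Fosb (-0.996) fell short of a call, which left 3 members. Without cluster 1, T cell-like cells led by Klra7, Klra1 and Klra6, Egr2 (-2.52) no longer had 1 sign. The NK gene Klrb1c was among the leading genes of that cluster but present in 9.95% of its cells.

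Of 26 other immediate early genes examined, 8 were called lower in T cell-like cells and 1 higher (median -0.27). Zfp36, which destabilises cytokine mRNAs, was at -2.61, Dusp1, a phosphatase of MAP kinases, at -2.30, and Klf4 at -2.30. Tnfaip3, an inhibitor of NF-kappaB signalling, was higher (1.03). Of 12 other Egr and AP-1 family genes and corepressors 5 were lower, with Atf3 at -3.62, and Batf, an AP-1 factor of lymphocytes, was higher (1.01). Of 9 heat shock and dissociation genes 1 was lower, Hspa1a (-1.64). In the 157 macrophage-like barcodes without T cell counts Fos was at 2158 CPM, Jun at 652, Egr2 at 73.5 and Egr3 at 35.1, against 1421, 379, 38.9 and 18.0 CPM in all 1513.

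**Figure D1:**
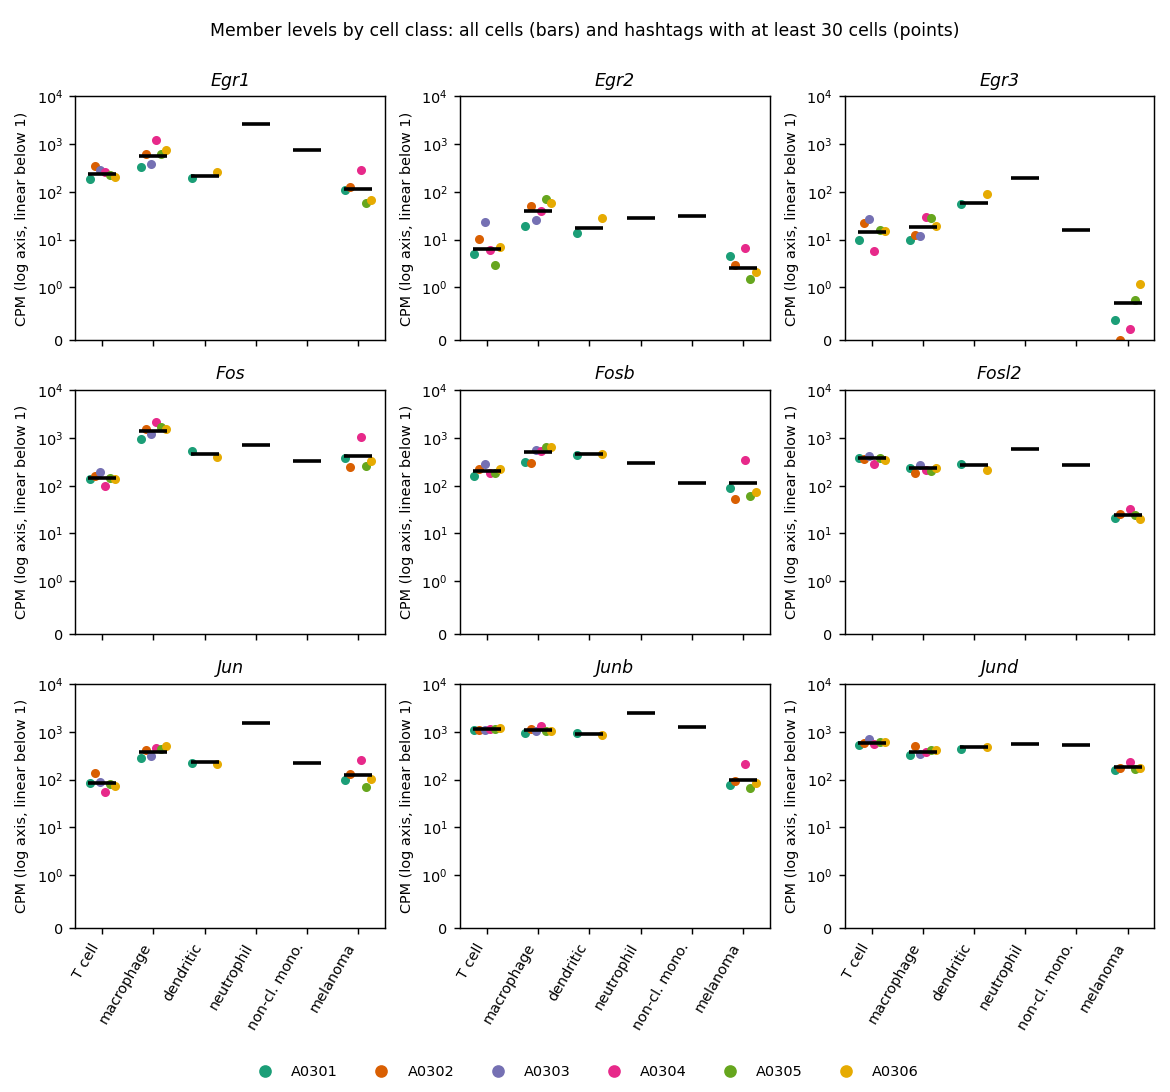
Level of each member in CPM (logarithmic vertical axis, linear below 1) in 6 cell classes. Bars give all cells of a class and coloured points the hashtags with at least 30 of its cells. The macrophage-like Fos points (936 to 2163 CPM) lie above every T cell-like point, and the melanoma-like points of A0304 lie highest for Fos, Fosb, Jun, Junb and Jund.

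Against melanoma-like cells, the T cell-like cells had higher Fosl2, Junb and Jund and lower Fos. Junb, an AP-1 subunit with weaker activation than Jun, was at 1121, 1102, 1174, 1168 and 1179 CPM in T cell-like cells of A0301, A0302, A0304, A0305 and A0306. In melanoma-like cells of these hashtags Junb was at 76.9, 93.6, 207, 65.9 and 84.1 CPM. No melanoma value came near a T cell value, and the median log2 ratio of Junb was 3.81 (2.498 to 4.15). Fosl2, which encodes Fra-2, was at 287 to 387 against 20.3 to 33.0 CPM (median log2 3.98, 3.10 to 4.15). Jund, a broadly expressed Jun gene, was at 538 to 617 against 157 to 239 CPM (1.78, 1.25 to 1.87). Egr3 gave 1280 counts in T cell-like against 128 in melanoma-like cells over these hashtags. Its melanoma-like sums were 11, 0, 2, 48 and 67 counts, so in 3 of 5 hashtags they were under the floor of 30. The log2 ratio of 4.14, that of A0301, passed the call but rests on 11 counts.

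Fos went the other way, at 100 to 158 CPM in T cell-like and 248 to 1054 CPM in melanoma-like cells (median log2 -1.22, -3.39 to -0.64). With 10000 counts drawn per cell, so that all cells had the same depth, the Fos ratio was -0.70 and no longer called. Of the 9 members 4 were thus called higher and 1 lower, against 22.9% and 25.9% of 11288 genes. Egr1 (1.497), Fosb (1.59), Egr2 (1.00) and Jun (-0.20) had both signs. A0304 stood apart for Egr1 and Fosb: Egr1 was at 255 against 283 CPM and Fosb at 188 against 353 CPM there. Without A0304, Egr1 (1.57), Egr2 (1.38) and Fosb (1.60) were called higher as well. That made 8 members called, Fos among them as lower. No share of all genes was computed without A0304, and with fewer hashtags any gene reaches 1 common sign more easily.

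Melanoma-like cells fell into 2 clusters with different levels of most members. Cluster 11, 155 cells led by Ubd, Iigp1 and Tgtp1, genes induced by interferon-gamma, had Fos at 1081 CPM against 287 in the 858 cells of cluster 6. Fosb was at 344 against 66.3 CPM, Egr1 at 312.02 against 73.0, Jun at 337 against 83.4 and Junb at 213 against 73.3. Jund was at 286 against 167 CPM, and Nr4a1 at 409 against 94.9 CPM. Each of these genes was thus higher in cluster 11. The clusters were made from all genes, these included, so the difference is a description. Cluster 11 took 26 of the 40 melanoma-like cells of A0304 (65%, 48.3 to 79.4), and 5 of the 6 of A0303 (83.3%, 35.9 to 99.6), against 3.65% to 16.4% in A0301, A0302, A0305 and A0306. The part of this share in the high melanoma levels of A0304 was not tested. A further 285 shallow cells with melanoma markers (median 7202 counts, 2.52% of cells) were kept apart after their depth had been seen; there Fos was at 275 and Jun at 129 CPM.

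Among the smaller classes the neutrophil-like cells had Egr1 at 2670 CPM, Junb at 2496, Jun at 1542 and Egr3 at 196 CPM. Each of these was the highest level of that gene among the 6 classes. For Egr1 the order below was non-classical monocyte-like (755), macrophage-like (577), T cell-like (236), dendritic cell-like (220) and melanoma-like cells (113 CPM). T cell-like and dendritic cell-like Egr1 did not differ beyond the spread of hashtags, which was 184 to 356 and 199 to 259 CPM. For Jun the order was neutrophil-like, macrophage-like (379), dendritic cell-like (234), non-classical monocyte-like (223), melanoma-like (125) and T cell-like cells (86.2 CPM), with overlap between the last pair. For Fosl2 it was neutrophil-like (583), T cell-like (376), dendritic cell-like (278), non-classical monocyte-like (277), macrophage-like (236) and melanoma-like cells (24.3 CPM). T cell-like and dendritic Fosl2 stood at 287 to 425 and 218 to 284 CPM by hashtag. For Jund T cell-like cells were first (595) and melanoma-like cells last (187 CPM). The neutrophil-like and non-classical monocyte-like classes had no hashtag with 30 cells, so no spread can be given, and Trac was present in 7.19% and 70.6% of them.

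A cluster of 55 macrophage-like cells led by Lyve1, Cbr2 and Folr2, genes of tissue-resident macrophages, differed from the other 1458 in several members. Fos was at 3804 against 1325 CPM, Egr1 at 2208 against 510 and Jun at 1190 against 346 CPM. Fosb was at 1087 against 473 CPM and Egr2 at 152 against 34.3 CPM. Fosl2 was lower there, at 181 against 239 CPM. Outside the named classes, 26 fibroblast-like cells had Fos at 4011, Jun at 1747 and Egr1 at 1772 CPM. An unnamed cluster of 134 cells led by Cd163l1, Trdc, Blk and Il17a, genes of gamma delta T cells that make IL-17, had Jun at 982, Fosb at 1003, Junb at 2020 and Jund at 1160 CPM. These are descriptions of clusters made with the same genes. Heat shock genes summed to 27203 CPM in cluster 18, 33 T cell-like cells in which Jun was at 232 CPM, and to 3163 to 7672 CPM in the other clusters.

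Within T cell-like cells the members were spread unequally over cells. Junb was present in 81.7% of T cell-like cells, Jund in 68.5%, Fosl2 in 53.6%, Egr1 in 32.9%, Fosb in 25.7%, Fos in 18.1% and Jun in 13.4%. Egr2 was present in 1.35% and Egr3 in 2.73%. The 1% of T cell-like cells with the most counts of a gene held 78.6% of all Egr2 and 55.6% of all Egr3 counts, against 15.8% for Egr1. Egr2 and Egr3 levels in T cells thus rest on few cells. No class here is known to lack these genes, so no background share from free RNA could be set beside these values.

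CD8 cells, those with Cd8a or Cd8b1 and no Cd4, and CD4 cells, the reverse, were divided into 11 states by marker genes. The states are gates on single genes, and shallow cells can miss a gate. Jun was at 160 CPM in the 82 CD8 cells with Tcf7 and Pdcd1 and no Havcr2 and at 163 CPM in the 479 with Tcf7 alone. Tcf7 encodes TCF1, the factor of stem-like precursors, and Pdcd1 the receptor PD-1. Jun was at 78.1 CPM in CD8 cells with Havcr2, the gene of TIM-3, at 47.0 in cycling CD8 cells and at 48.6 CPM in those with Gzmk. Fosl2 was at 498 and 554 CPM in the Tcf7 states, 400 with Havcr2 and 219 CPM in cycling cells. In the other CD8 cells Fosl2 was at 492 CPM, about as high as with Tcf7 and Pdcd1, while Jun was at 69.4 CPM there. By hashtag Fosl2 was at 566 to 716 CPM in the state with Tcf7 alone and at 162 to 272 CPM in cycling CD8 cells, with no overlap.

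Egr1 was lower in the Tcf7 states, at 164 and 145 CPM, than in cells with Havcr2 (330), with Gzmk (303.3), in cycling CD8 cells (232) and in the other CD8 cells (368 CPM). By hashtag Egr1 was at 112 to 193 CPM with Tcf7 alone (3 hashtags) and at 248 to 485 CPM with Havcr2 (5 hashtags). Egr3 was highest in the state with Tcf7 and Pdcd1 (40.2 CPM, 106 counts), but present in 6 of its 82 cells. Egr2 there gave 29 counts, under the floor of 30 used for a level. The 31 CD8 cells with Klra genes and without Pdcd1 had the highest Fos (420 CPM), Fosl2 (719) and Jun (282 CPM) of the 11 states. In all, 5 of 9 members were higher in the state with Tcf7 and Pdcd1 than in that with Havcr2. When cells were thinned to 10000 counts before gating, 3 of 9 were. The 5 were Jun, Fosl2, Fos, Egr2 and Egr3, of which Egr2 and Egr3 rest on the few counts or cells given above. No share of all genes was computed beside these counts, so they show no preference of the members for either state.

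Among CD4 cells, 249 had Tnfsf11, Penk or Ccl1 and no Foxp3. These had the highest Fosb (344.5 CPM), Junb (1621) and Egr2 (22.8 CPM) of all states. Their Egr1 was at 122 CPM, against 300 CPM in the other Foxp3-negative CD4 cells. In the latter Fos was at 246 and Jun at 110 CPM. Over all CD4 cells, A0303 stood apart for Egr2 (57.1 CPM, next hashtag 5.77) and Fosb (435 CPM, next 196). The part of A0303 in the highest Egr2 and Fosb levels above was not tested. Cycling regulatory T cells, with Foxp3 and Mki67 or Top2a, had the lowest Egr1 (47.4 CPM), Fosb (107), Fosl2 (172) and Jund (422 CPM) of the 11 states. Egr2 was listed at 0 in their 132 cells.

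**Figure D2:**
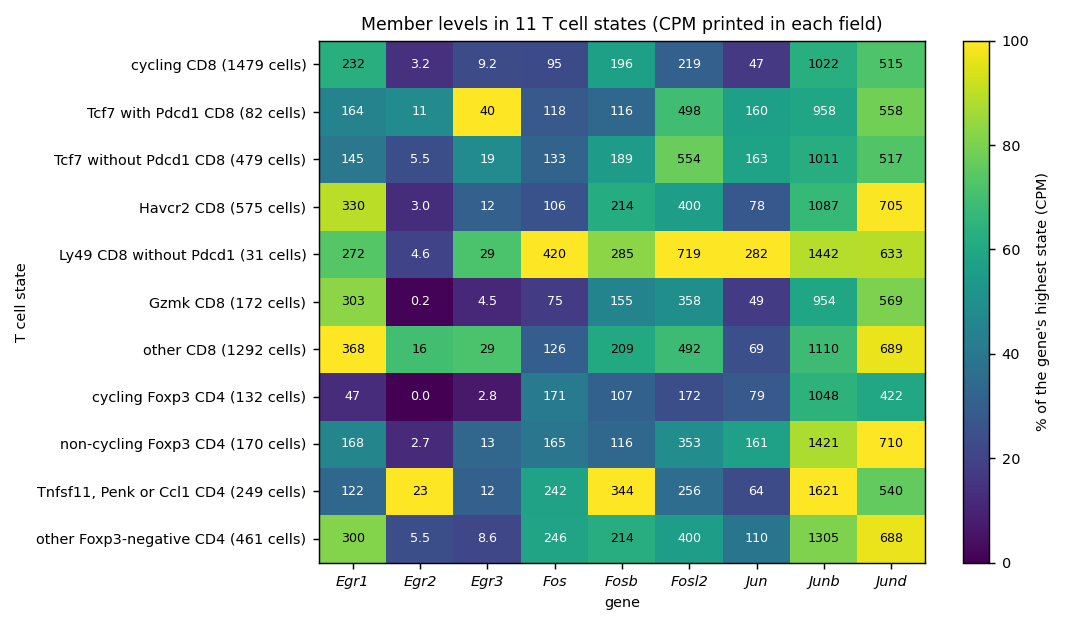
Level of each member in 11 T cell states, with CPM printed in each field and colour giving the percent of that gene's highest state. Jun and Fosl2 are brighter in the Tcf7 states than in the Havcr2, Gzmk and cycling CD8 states, and Egr1 is darker there; Egr2 and Egr3 rest on few cells.

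Jun and Fosl2 were called higher in Tcf7-positive than in Havcr2-positive CD8 cells when both arms were compared within hashtags. The arms held 701 and 1189 cells, cycling cells included, and 3 hashtags had enough cells. Jun was at 145, 122 and 93.0 CPM in Tcf7-positive cells of A0301, A0305 and A0306, and at 50.9, 29.9 and 37.8 CPM in their Havcr2-positive cells. The arms did not overlap (median log2 1.51, 1.30 to 2.01). Fosl2 was at 432, 471 and 470 CPM against 235, 234 and 222 CPM, again without overlap (1.01, 0.88 to 1.08). These 2 of 7 members examined stand against 5.04% of 5892 genes called higher. The Tcf7-positive cells were shallower, with a median of 23502 counts against 44593.

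Fos (0.85, 0.81 to 1.37) was above 0 and Egr1 (-0.82, -2.08 to -0.17) below 0 in all 3 hashtags without a call. Egr1 was at 119, 75.1 and 160 CPM against 210, 330 and 181 CPM. Fosb (-0.24), Junb (-0.02) and Jund (-0.10) had both signs. Egr2 (27 against 25 counts) and Egr3 (101 against 164 counts) were under the minimum of a mean of 100 counts per sum. Which members were called depended on depth and on cycling cells. With 10000 counts per cell, Fos (1.27) and Egr1 (-1.29) were called and Jun (0.93) and Fosl2 (0.88) were not. Without cells holding Mki67 or Top2a, Fos (1.59) and Egr1 (-1.25) were called beside Jun, and Fosl2 (0.57) was not. Without A0301, Jun, Fosl2, Fos (1.11) and Egr1 (-1.12) were called, while without A0305 or A0306 the Fosl2 median was 0.98 or 0.94. Fos was called without A0305 (1.09) and Egr1 without A0306 (-1.45). With all cells pooled Fosl2 was at 0.72 and not called. The direction of these 4 genes was the same in each of these settings.

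Of 23 other immediate early genes examined between these arms 5 were called higher and 0 lower, with a list median of 0.53 against -0.07 over all genes. Klf2, a factor of quiescence and egress, was at 4.94, Zfp36l1 at 1.47, Zfp36l2 at 1.42, Ppp1r15a at 1.22 and Klf4 at 1.18. Of 20 genes linked to Egr2, Egr3 or NFAT in T cells 4 were higher and 8 lower. Crtam (2.17) and Xcl1 (2.07) were among the higher ones, and the chemokine genes Ccl3 (-5.14) and Ccl4 (-2.97) and Ifng (-2.95) among the lower ones. Nr4a2 was at -0.50, Nr4a1 at 0.18 and Nr4a3 at 0.67, none called. Of 7 heat shock and dissociation genes 0 were called.

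Fosb and Egr1 were called lower in Foxp3-positive than in Foxp3-negative CD4 cells (710 of the 1012 CD4 cells had no Foxp3 at the gate). Fosb was at 59.2, 67.3 and 119 CPM in Foxp3-positive cells of A0301, A0305 and A0306, against 159, 264 and 258 CPM. Egr1 was at 65.9, 91.2 and 76.1 CPM against 199, 215 and 190 CPM. For both genes every Foxp3-positive value lay below every Foxp3-negative value (median log2 -1.39, -1.91 to -1.09 for Fosb, and -1.28, -1.56 to -1.20 for Egr1). Of all 3768 genes 3.82% were called lower, against these 2 of 7 members examined. Fos (-0.86), Fosl2 (-0.63), Junb (-0.37) and Jund (-0.37) were below 0 in all 3 hashtags without a call, and Jun (-0.11) had both signs. With a gate of 10 counts Fos reached -1.67, and without A0306 it was at -1.19, past the size of a call. Egr2 gave 0 counts with Foxp3 and 53 without it, and Egr3 gave 1 and 86, both under the minimum.

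Nr4a2 was lower in the Foxp3-positive cells (-1.94), as was Atf3 (-1.95), an AP-1 related stress factor, while Maf, a factor of helper and regulatory cells, was higher (1.59). Of 23 other immediate early genes examined 2 were lower, Klf4 (-2.87) and Btg2 (-2.11), and Zfp36l1 was higher (1.06). Median depth was 32440.5 counts in the Foxp3-positive arm and 18816.5 in the other, and macrophage markers summed to 603 against 237 CPM. With 10000 counts drawn per cell Egr1 was at -1.30 and Fosb at -1.08, both still called. The part of the macrophage markers in these ratios was not tested. Heat shock genes stood at 6436 and 6351 CPM.

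**Figure D3:**
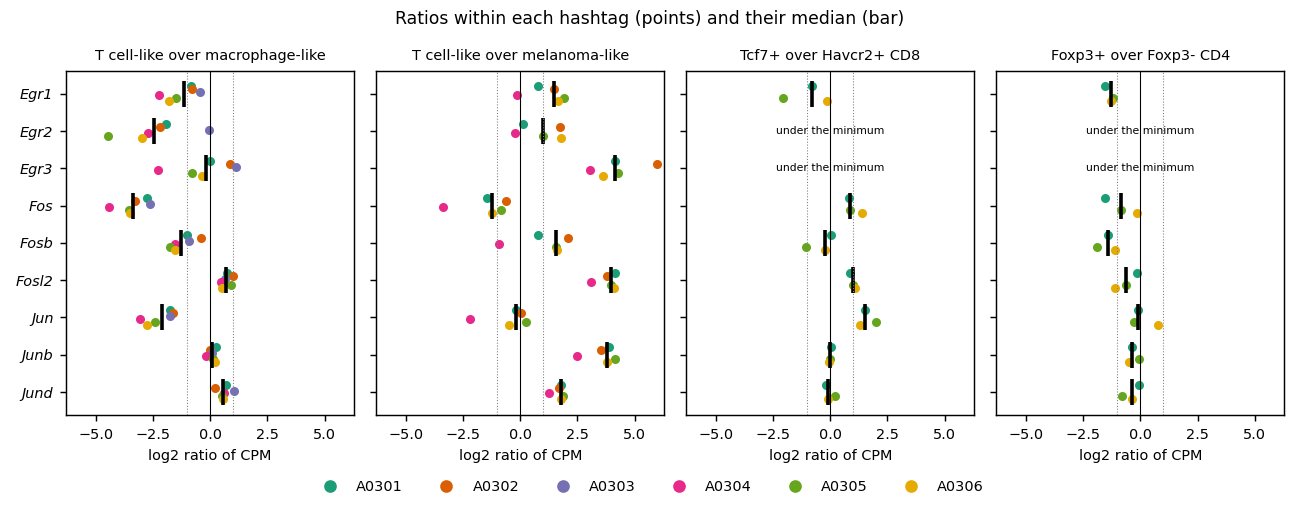
Log2 ratio of CPM for each member within each hashtag (points) and the median over hashtags (bars) in 4 comparisons; dotted lines mark 1 and -1. All Fos and Jun points lie left of 0 for T cell-like over macrophage-like cells, both Jun and Fosl2 lie right of 0 for Tcf7+ over Havcr2+ CD8 cells, and Egr1 and Fosb lie left of 0 for Foxp3+ over Foxp3- CD4 cells.

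Correlations of members with Nr4a genes over cells are descriptions. The cells share a library, differ in depth and in genotype, and values are log counts scaled to 10000 per cell. In sparse counts a weak r is no finding, so each r is set beside its place among all genes that were not members and were present in at least 5% of cells. Nr4a counts in a cell of deleted genotype and in a cell where they were not sampled cannot be told apart.

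In 4110 CD8 cells Nr4a1, the Nr4a gene most tied to receptor signal strength, stood high among 6469 genes for most members though r was small. For Egr3 it came first (r = 0.16), for Egr2 in place 3 (0.12), for Egr1 and Junb in place 4 (0.22 and 0.24), for Fosb in place 9 (0.20) and for Fos in place 15 (0.13). Fosl2 had Nr4a3 in place 3 (0.17), and Jund had Nr4a2 first (0.20). Jun was at 0.10 with Nr4a1 and -0.01 with Nr4a2. Within the 6 hashtags the r of Egr1 and Nr4a1 was 0.15 to 0.30. Other genes nearest to members were Ifng (0.24), Ccl4 (0.24) and Ccl3 (0.23) for Egr1, the mRNA-decay gene Zfp36 (0.30) and Klf6 (0.26) for Fos, Klf6 (0.34) for Fosb, Vps37b (0.23) for Fosl2 and Bhlhe40 (0.28) for Junb.

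CD8 cells in which Nr4a1 was present more often held other members at equal depth. In cells thinned to 10000 counts and scored at 2 or more counts, Fosb was present in 36.0% (33.5 to 38.6) of 1382 cells with Nr4a1 and 21.8% (20.2 to 23.5) of 2441 without. Fos was present in 19.5% (17.4 to 21.7) against 12.9% (11.6 to 14.3), and Egr1 in 47.7% (45.0 to 50.4) against 36.1% (34.1 to 38.0). Egr3 was present in 4.85% (3.78 to 6.12) against 1.76% (1.28 to 2.37). These 4 and Junb (91.8% against 82.5%) were higher in all 6 hashtags, as were 2.5% of 9675 genes present in at least 1% of cells. That share includes sparse genes, which cannot count as higher in a hashtag where no cell of either arm holds them. It is thus not matched to members present in many cells, and the same holds for the shares of this kind below. Jun and Jund were higher in 5 of 6, Fosl2 (54.4% against 52.1%) also in 5 of 6 and Egr2 in 3 of 6. Presence of Nr4a3 went with Fosl2 in all 6 hashtags (60.2%, 57.7 to 62.7, against 48.3%, 46.2 to 50.3), as in 2.48% of those genes. Fosb (29.1% against 25.6%), Junb (89.7% against 83.4%) and Jund (77.4% against 71.8%) were also higher with Nr4a3 in all 6. Fos was not (14.5% against 15.7%).

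The summed levels gave fewer calls. Against cells at 0 counts of Nr4a1 (1382 against 2012 cells, thinned), the median log2 ratio of Egr1 was 1.05 (0.20 to 1.53, 6 hashtags), 1 of 8 genes called among 2265, or 0.353%. The others were Nr4a1 itself, Ccl3 (1.16), Ccl4 (1.25), Ifng (1.23), Cdkn1a (1.22), Nfkbiz (1.15) and Phlda1 (1.57). Fosb (0.84), Fos (0.71), Junb (0.54) and Jund (0.17) were above 0 in all 6 hashtags without a call. For Nr4a2 (3134 against 542 cells, 3 hashtags) Jun was lower, at -1.42 (-2.18 to -0.16), with 1.56% of 3324 genes called lower, and Egr1 (0.97) was not called. Fos was below 0 in all 3 hashtags with Nr4a2 (-0.48, -2.50 to -0.08) and in all 6 with Nr4a3 (-0.44, -1.47 to -0.13), without a call. For Nr4a3 no member was called. The share of cells with Jun present was 10.5% (9.48 to 11.7) with Nr4a2 against 13.4% (10.9 to 16.1) without it.

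With any of the 3 Nr4a genes at the gate against all 3 at 0 counts (3577 against 291 CD8 cells), only A0301 had enough cells, so signs could not be checked across hashtags. There Egr1 was at 217 against 59.9 CPM (log2 1.74), Fosb at 172 against 71.0 CPM (1.18) and Jun at 64.8 against 141 CPM (-1.17). Past 1 in size lay 14.4% of 8590 genes upward and 14.3% downward. Egr3 was at -1.03, but on 14 counts in the cells without Nr4a, under the floor of 30, so no direction is given. The cells without Nr4a were shallow (median 14951 counts against 31213). At equal depth Jun was at -0.70 and without cycling cells at -0.57, with all cells pooled Egr1 was at 0.95 and with a gate of 10 counts Fosb was at 0.84, each short of the size of a call.

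**Figure D4:**
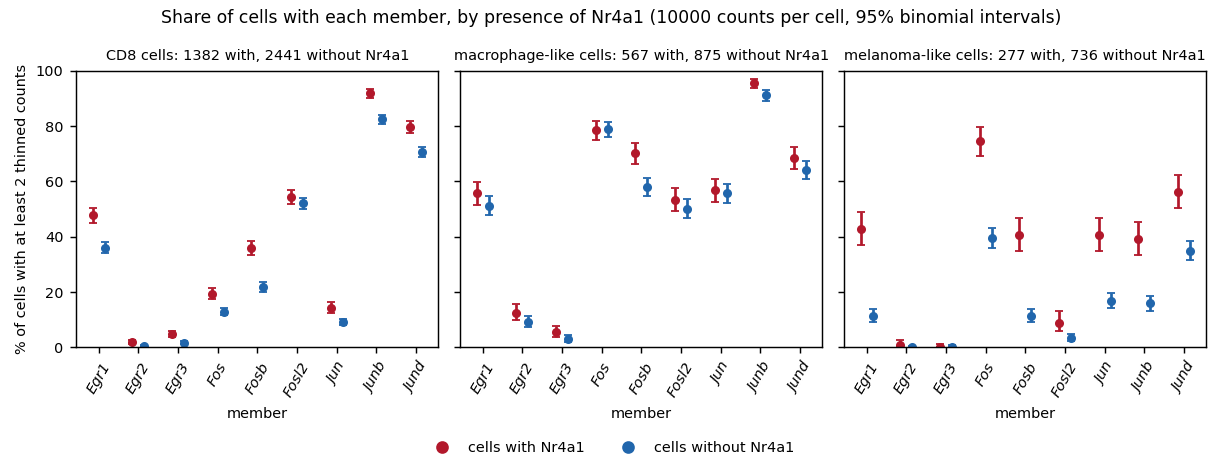
Percent of cells in which each member was present (at least 2 of 10000 thinned counts) in cells with Nr4a1 (red) and without it (blue), with exact binomial 95% intervals that cover counting error only. The gap is widest in melanoma-like cells, where Fos was present in 74.7% against 39.4%, and Fos shows none in macrophage-like cells, at 78.7% against 78.9%.

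In 1513 macrophage-like cells the AP-1 members divided by their relation to Nr4a2. Fosl2 had Nr4a2 first among 8813 genes (r = 0.24), while Fos (-0.14) and Jun (-0.13) had it near the end of the order, in places 8776 and 8734. In the 157 barcodes without T cell counts the values were 0.29 for Fosl2, -0.19 for Fos and -0.18 for Jun. Fosl2 was present in 57.4% (54.3 to 60.5) of 1009 thinned cells with Nr4a2 and 37.6% (33.1 to 42.4) of 433 without, higher in all 6 hashtags, as were 7.64% of 10087 genes. Jund was also higher with Nr4a2 in all 6 hashtags (69.8% against 57.0%). The r of Jund with Nr4a2 was 0.14 in all 1513 cells and 0.08 in the 157 barcodes without T cell counts. The genes nearest to Jund were Pnrc1 (0.27) and the T cell genes Cd8b1 (0.24) and Cd3g (0.23). The part of T cell reads in the Jund shares was not tested. Jun was present in 54.7% (51.6 to 57.8) against 59.4% (54.6 to 64.0), higher with Nr4a2 in 1 of 6.

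In summed levels against 320 cells at 0 counts of Nr4a2, Jun was called lower at -1.001 (-1.51 to -0.82, 5 hashtags), 1 of 5 genes or 0.294% of 1698. The other 4 were Apoe (-1.02), Cd63 (-1.14), Trem2 (-1.18) and Mmp12 (-1.64). Apoe and Trem2 are known from lipid-handling macrophages. Fos was at -0.78 and Fosl2 at 0.63 without a call, each of 1 sign. Among genes higher with Nr4a2 were the T cell genes Cd3g (2.24), Trbc2 (2.18), Gzmb (2.38) and Cxcr6 (2.44), so T cell reads moved with Nr4a2 in these barcodes. Nr4a1 was nearer to Junb (0.25, place 18) and Fosb (0.21, place 48). The genes nearest to Fos were Dusp1 (0.57), Zfp36 (0.54) and Atf3 (0.41), and to Egr1 Zfp36 (0.43), Dusp1 (0.40) and Btg2 (0.35). Zfp36 had the highest median r over the 9 members (0.33), and Nr4a1 came in place 58.

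In 1013 melanoma-like cells the r of most members with Nr4a1 was larger than in the other cell types. The upper end of r over all genes also lay higher there for most members. For Egr1, 99% of genes stayed under 0.26 in melanoma-like, 0.15 in macrophage-like and 0.10 in CD8 cells. The median r of all genes with Egr1 was not higher, at 0.004 against 0.012 and 0.006 in the same order. Among 10656 genes Nr4a1 came first for Egr1 (r = 0.56), in place 2 for Fosb (0.59), Junb (0.55), Egr2 (0.28) and Fosl2 (0.30) and in place 3 for Fos (0.57). Jun (0.415) and Jund (0.34) had it in places 13 and 17. Egr3, present in 0.987% of these cells, had none (0.00). Within the 3 hashtags with at least 100 melanoma-like cells r with Nr4a1 was 0.38 to 0.47 for Egr1, 0.43 to 0.57 for Fos and 0.43 to 0.51 for Fosb. In cluster 6 alone it was 0.43, 0.45 and 0.43, in cluster 11 alone 0.52, 0.56 and 0.61, and without A0304 0.54, 0.55 and 0.57. The median of all 27 pairs of a member and an Nr4a gene was 0.28 in melanoma-like, 0.12 in CD8, 0.11 in CD4 and 0.0535 in macrophage-like cells. Melanoma-like cells were deepest, and at 10000 counts per cell their median was 0.18.

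Fos was present in 74.7% (69.2 to 79.7) of 277 melanoma-like cells with Nr4a1 and 39.4% (35.9 to 43.0) of 736 without, at 10000 counts each. Egr1 was present in 43.0% (37.1 to 49.0) against 11.4% (9.21 to 13.9) and Fosb in 40.8% (35.0 to 46.8) against 11.3% (9.08 to 13.8). Jun was present in 40.8% against 16.7%, Junb in 39.4% against 15.9%, Jund in 56.3% against 34.9% and Fosl2 in 9.03% against 3.40%. All 7 were higher in 3 of 3 hashtags, as were 13.5% of 9703 genes present in at least 1% of cells. In summed levels Fos was called higher (median log2 1.41, 1.28 to 2.51), 1 of 13 genes or 0.769% of 1690, and Jund was at 0.97 without a call. The other members were under the count minimum there. Others called included Cd74, Gbp6, Iigp1 and Igtp, genes induced by interferon-gamma. The genes with the highest median r over members were Atf3 (0.49), Nfkbia (0.48) and Zfp36 (0.48), with Nr4a1 in place 9 (0.415). By the same median Nr4a1 came in place 3 in CD8 (0.15) and in CD4 cells (0.14).

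**Figure D5:**
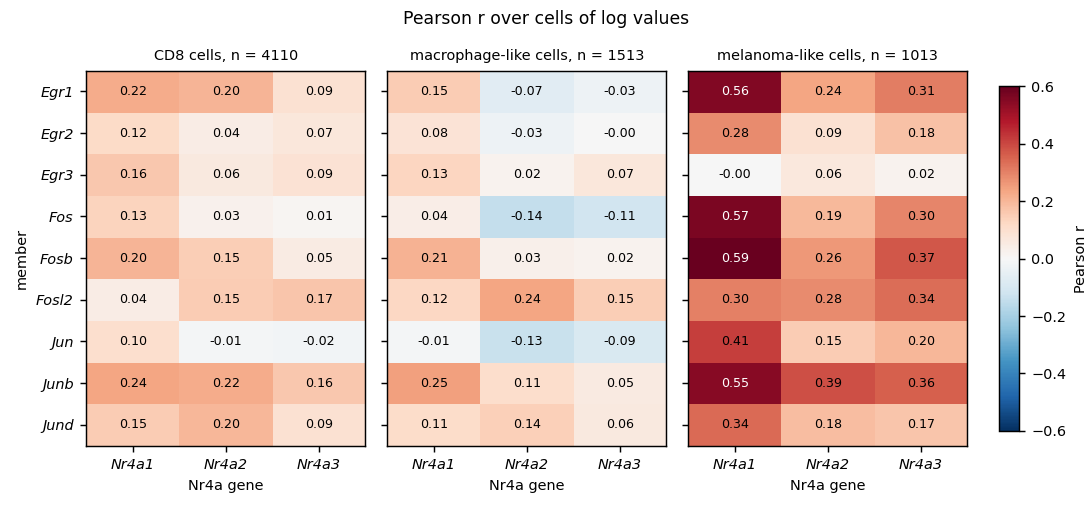
Pearson r over cells between each member (rows) and each Nr4a gene (columns) in CD8, macrophage-like and melanoma-like cells, with r printed and coloured from -0.6 to 0.6. The Nr4a1 column is strongest in melanoma-like cells, and Fos and Jun are negative with Nr4a2 in macrophage-like cells while Fosl2 is positive.

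Among themselves several members had a higher r with Fos in macrophage-like and melanoma-like than in CD8 cells. The r of Fos with Fosb was 0.34 in CD8, 0.44 in macrophage-like and 0.71 in melanoma-like cells. With Jun, Fos was at 0.28, 0.50 and 0.61, and with Egr1 at 0.18, 0.56 and 0.66 in the same order. Fosl2 had an r of 0.00, -0.07 and 0.21 with Fos and 0.00, -0.06 and 0.18 with Jun. In melanoma-like cells those values lay above 0.16, the level that 99% of all genes stay under with Fosl2.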

How the data were processed

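Messenger RNA and hashtag libraries of 1 pooled capture were used. The authors deposited both as whole-number counts, per gene and per hashtag and cell barcode. The submitters' processing notes name the build GRCm38 and, without a role for each, R 3.5.3, Bowtie2 (2.3.4.1, 2.4.2) and cutadapt 2.10. The sources used here do not say if molecular identifiers were collapsed. The planned minimums assumed molecules, and 10 counts stand in place of 1 molecule, set after the values were seen. The members, the marker genes and the gene lists were chosen with earlier results of these data known, so no list is independent support.

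The limits of 500 genes and 25% mitochondrial counts removed 279 and 675 barcodes, 698 in all. Cells were clustered with scanpy 1.11.5 (3000 variable genes, 40 principal components, 20 neighbours) and leidenalg 0.10.2 at a resolution of 1. Clusters were named from 18 marker lists where at least 3 markers, or 5 for T cells, were found in 20% of cells. Hashtags were called where 1 hashtag raised the log likelihood over background by at least 3. Scrublet marked 1 cell and so has not worked here; leaving out the 677 highest scores was an alternative. Counts summed by hashtag and arm were compared as log2 ratios of CPM after adding 5 counts, where a gene's sums averaged at least 100 counts. Thinning to 10000 counts per cell left out 1389 shallower cells. The ratio, naming and correlation steps were tested on simulated data. Named genes are the members, the Nr4a genes, called genes of the lists and the 3 genes nearest to each member by r. Tables and plots were made with pandas 2.3.3, matplotlib 3.10.9, scipy 1.17.1 and numpy 2.4.6 under Python 3.11.15. Of 45 groups of hashtags 9 held a hashtag set apart. Alternatives were another scaling, minimum, added count, gate, depth, mitochondrial limit and doublet removal, and leaving out each hashtag, cluster 1 or cycling cells.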

Additional observations from a re-analysis of the deposited data

Results flagged for a closer look

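In 9 of 45 groups of 5 or 6 hashtags, 1 hashtag lay farther from the nearest other than Dixon's 95% limit allows. Chance alone flags about 1 in 20 groups. The groups share cells, and several members were read from the same cells, so the flags are not independent. Their number therefore cannot show an excess over chance. In melanoma-like cells A0304, with 40 such cells, was highest for Fos (1053.9 CPM, next 384), Fosb (353.13 CPM, next 91.7), Junb (207.37 CPM, next 93.6) and Jund (239.18 CPM, next 179). A0303 was highest for Egr2 in T cell-like cells (23.898 CPM, next 10.3) and for Fosl2 in CD8 cells (398.01 CPM, next 324). In CD4 cells A0303 was also highest for Egr1 (256.2 CPM, next 164), Egr2 (57.077 CPM, next 5.77) and Fosb (435.21 CPM, next 196). The genotypes behind A0303 and A0304 are not given in the sources used here.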

How the results depend on the processing

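Of the log2 ratios of members recomputed without 1 hashtag, 123 kept their side of the call, 8 gained a call and 8 lost it. Under the other settings 270 kept it, 11 gained, 12 lost, 3 moved and 2 turned: Egr3 between CD8 cells with and without Nr4a genes was at 0.77 with a gate of 10 counts and at 0.15 with all cells pooled, and in the main comparison rests on 14 counts. In that comparison the number of members called was 4, and 2 after thinning, 2 with a gate of 10 counts and 2 without cycling cells. With a hashtag left out the number called was 3 to 5 for T cell-like against macrophage-like cells, 5 to 8 against melanoma-like cells, 2 to 4 for Tcf7-positive against Havcr2-positive CD8 cells and 2 to 3 for the split on Foxp3. After thinning before gating, 3 members in place of 5 were higher in CD8 cells with Tcf7 and Pdcd1 than in those with Havcr2. The cause was not tested. No share of all genes was computed beside these counts, or beside the numbers of members called under the alternative settings. The median r of the 27 pairs in melanoma-like cells was 0.28, at 10000 counts per cell 0.18 and in cluster 6 alone 0.21. Class and state gates of 10 counts could not be applied to the classes, and leaving out A0301 could not be run for the split on any Nr4a gene, since no other hashtag had 30 cells in both arms. Macrophage-like cells with any against no Nr4a gene were not run for the same reason. No paired analysis was possible because both libraries come from 1 capture and no genotype is known for a hashtag; the ratios were taken within hashtags. Few cells carry Egr2 and Egr3; where an arm held under 30 of their counts over all hashtags used, no direction was given.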
